A study of Drosophila melanogaster with 266 samples.

Results

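The genes described here are the 4 dopamine receptor genes of Drosophila melanogaster, Dop1R1, Dop1R2, Dop2R and DopEcR, taken by name as 4 of the 13931 protein-coding genes in the expression tables. They were followed across 67 single cell types of the adult fly, profiled from genetically tagged nuclei. Those types comprise 50 visual system neuron types, 4 Kenyon cell types, 3 groups of PAM dopamine neurons, 5 protocerebral bridge neuron types, 3 lamina glia types and 2 muscle groups. Of the 266 libraries, 203 passed the authors' quality control, 47 were marked suboptimal and 16 were controls of the purification, and 167 of those that passed belong to the 67 single types, with 2 to 6 libraries per type and 2 in 51 of them.

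Dopamine acts on flies through G protein-coupled receptors that differ in what they do inside the cell. Dop1R1 is a D1-like receptor that raises cyclic AMP and is needed in the mushroom body for olfactory learning, Dop1R2 (also called DAMB) is another D1-like receptor that can signal through calcium and takes part in forgetting, Dop2R is the D2-like receptor that lowers cyclic AMP and can act as an autoreceptor on dopamine neurons, and DopEcR responds to both dopamine and the steroid ecdysone. PAM neurons are a cluster of dopamine neurons that carry reward signals to the lobes of the mushroom body, where Kenyon cells, the intrinsic neurons of that structure, receive them.

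In each group a GAL4 or split-GAL4 driver expressed the nuclear tag UNC84-2XGFP from the reporter 10XUAS_UNC84_attP2 in adults 4 to 7 days old kept on a light:dark cycle with no treatment, and every group of nuclei carries that tag. Nuclei were captured with anti-GFP beads in a single step (INTACT) or in 2 steps (TAPIN), and the series holds 208 TAPIN, 50 INTACT and 8 dissected-tissue libraries. Kenyon cells, PAM, protocerebral bridge, glia and muscle libraries are all TAPIN, whereas the 123 visual neuron libraries include 40 made with INTACT. The Kenyon cell types are the dorsal γ cells (KC_gd, from a pair of drivers) and the α/β core, posterior and surface cells (KC_ab_c, KC_ab_p, KC_ab_s). PAM_1, PAM_3 and PAM_4 each stand for a single driver that labels a subset of the cluster. A group is therefore what its driver labels: the PB_3 driver also marks many optic lobe cells that outnumber the bridge neurons, the epithelial glia (Glia_Eg) drivers also mark marginal glia and ocellar photoreceptors, and Muscles_App nuclei came from appendages rather than heads. Expression is given as TPM, a relative transcript abundance corrected for length and scaled to the same total in every library, which the authors estimated with kallisto, and since no read counts are given the depth behind each value is unknown. The libraries of a driver are described as biological replicates, without saying whether they came from separate cultures, so p-values over libraries measure only the spread between these libraries, which may be technical.

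The labels were checked against marker genes fixed for each cell type. Summed TPM of the 4 dopamine neuron markers ple, Ddc, Vmat and DAT was 5869 to 11467 in the PAM libraries and 15.7 to 180 in Kenyon cells, and that of the 4 Kenyon cell markers was 2377 to 4654 in Kenyon cells and 60.7 to 190 in PAM. The Kenyon cell markers summed to 10.0 to 3645 TPM in visual libraries (median 111) and 14.7 to 1749 in bridge libraries. The highest visual library thus lay inside the Kenyon cell range. PAM_4 stood apart within its class, since its 4 glia markers summed to 3746 to 4125 TPM, inside the 2058 to 5746 of the glia libraries and above the 342 to 628 of PAM_1 and the 409 to 418 of PAM_3, while its neuron markers were lower (3619 to 5162 against 9342 to 11536). The members of that list disagreed, however. Mean repo was 0.625 TPM in PAM_4, below PAM_1 (6.78) and PAM_3 (21.4), and 81.65, 546 and 636 TPM in the glia types. The sum therefore does not identify the extra cells of PAM_4 as glia, and the paper leaves them as unidentified non-neuronal cells. The 4 glia markers also summed to 2171 to 2832 TPM in muscle libraries, where mean repo was 1.93 TPM in Muscles_App and 18.8 in Muscles_Head. The lobula type LC10b carried muscle markers at 3153 to 6756 TPM. Their part in the results was not tested, and calls that involve PAM are also given without PAM_4 where they changed, except for transcript shares. In the 4 libraries made with beads from flies without a driver, which measure the background of the capture, Dop1R1 was 104 to 206 TPM, Dop1R2 was 9.57 to 64.5, Dop2R was 41.6 to 232 and DopEcR was 469 to 2219. In the 4 mock libraries of the second TAPIN capture these were 0.48 to 61.6, 0 to 124, 1.76 to 828 and 352 to 1158 TPM, so that for Dop2R the highest mock library lay above every Kenyon cell and PAM library, while the 2 of them not labelled as Tm1 held 1.76 and 57.0 TPM.

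The receptors differed in level and in how widely they were found. DopEcR was the most abundant by far, with a median of 3172 TPM over the 50 visual types, and it was the highest of the 4 receptors by mean level in all 50 visual types, all 4 Kenyon cell types and all 5 bridge types, although in L3 it was level with Dop2R (means of 97.8 and 97.4 TPM, with the order reversed in 1 of the 2 libraries). Dop2R, Dop1R1 and Dop1R2 followed with visual medians of 67.2, 24.6 and 6.79 TPM. Dop1R2 was the most restricted, with 40 of the 67 types under 10 TPM, compared with 20 for Dop1R1. The spread between types was much larger than that between libraries of a type: the standard deviation of log2(TPM + 1) between types was 2.65, 2.30, 2.14 and 1.69 for Dop1R1, Dop1R2, Dop2R and DopEcR, and the median within a type was 0.27, 0.21, 0.16 and 0.15. Neighbours in the order of levels were nevertheless mostly not separable, since 59, 61, 55 and 58 of the 66 neighbouring pairs had overlapping libraries.

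**Figure D1:**
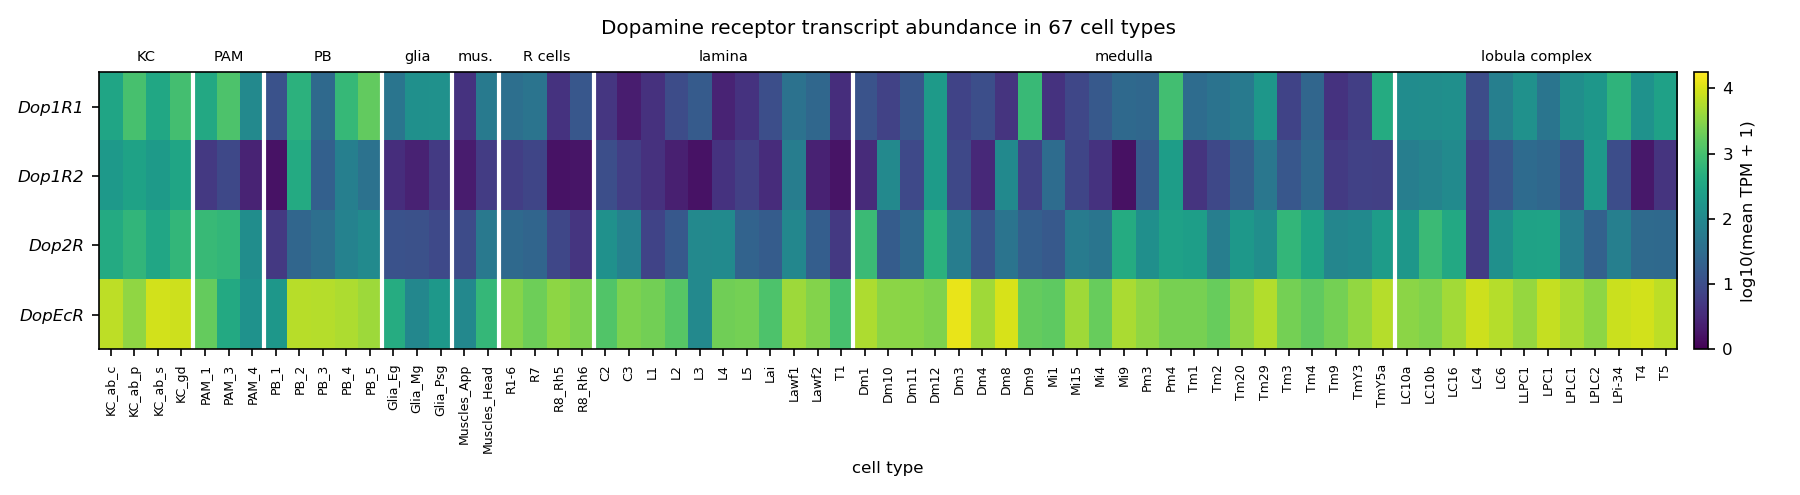
Mean level of each dopamine receptor gene in the 67 single cell types, shown as log10(mean TPM + 1) over the libraries of each type, with types grouped by class. The DopEcR row is bright in nearly all neurons and dim in glia, muscle, PAM_3, PAM_4, PB_1 and L3, whereas the Dop1R2 row is dark in 40 types under 10 TPM.

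Kenyon cells were compared with visual system neurons to find which receptors mark the main dopamine-receiving neurons of the mushroom body. Dop1R1, Dop1R2 and Dop2R were all higher in Kenyon cells, by 4.42, 4.52 and 2.91 on the log2(TPM + 1) scale, whereas DopEcR, already abundant in visual neurons, was not separated from them. Dop1R1 ran from 311 TPM to a median of 767 and a highest value of 1187 over the 10 Kenyon cell libraries, against 1.01, 24.9 and 982 over the 123 visual libraries. Dop1R2 ran from 186 through a median of 247 to 403 TPM, against 0, 6.29 and 237. All Kenyon cell types were high for both D1-like receptors, and the visual types above the lowest Kenyon cell type were Pm4, Dm9, LPi-34 and TmY5a for Dop1R1 and Pm4 and Dm12 for Dop1R2. Dop2R ran from 308 through 592 to 759 TPM in Kenyon cells and from 3.13 through 66.7 to 875 in visual neurons, and 6 of 50 visual types exceeded the lowest Kenyon cell type. DopEcR ran from 2813 through 6966 to 11566 TPM, with 21 of 50 visual types above the lowest Kenyon cell type. Its transcripts ranked 3 to 19 among all coding genes in the Kenyon cell types.

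The 3 differences passed the test, in which each cell type is a single value (limma on log2(TPM + 1), two-sided, Benjamini-Hochberg adjusted over all 10411 genes tested, threshold 0.05): adjusted p = 0.00762 for Dop1R1 (SE 1.17), 0.00161 for Dop1R2 (SE 1.00) and 0.0287 for Dop2R (SE 0.95), while DopEcR differed by 1.09 (SE 0.62, adjusted p = 0.205). So 3 of the 4 receptors were called higher, where 2.72% of all genes were called higher and 13.4% lower, and the median difference over all genes was −0.58 (−0.09 after quantile normalization, where the receptors differed by 4.60, 4.77, 2.99 and 0.65). Exact permutation tests over cell types, two-sided, gave p = 0.000272, 2.53e-05, 0.00388 and 0.0651. With TAPIN libraries alone (34 visual types), Dop1R1 differed by 3.60 (adjusted p = 0.0422) and Dop1R2 by 4.10 (0.011), whereas the Dop2R call was lost at 2.74 (0.0668). The Dop2R call was also lost when any single Kenyon cell type was left out (adjusted p 0.064 to 0.106), while Dop1R1 and Dop1R2 kept theirs.

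**Figure D2:**
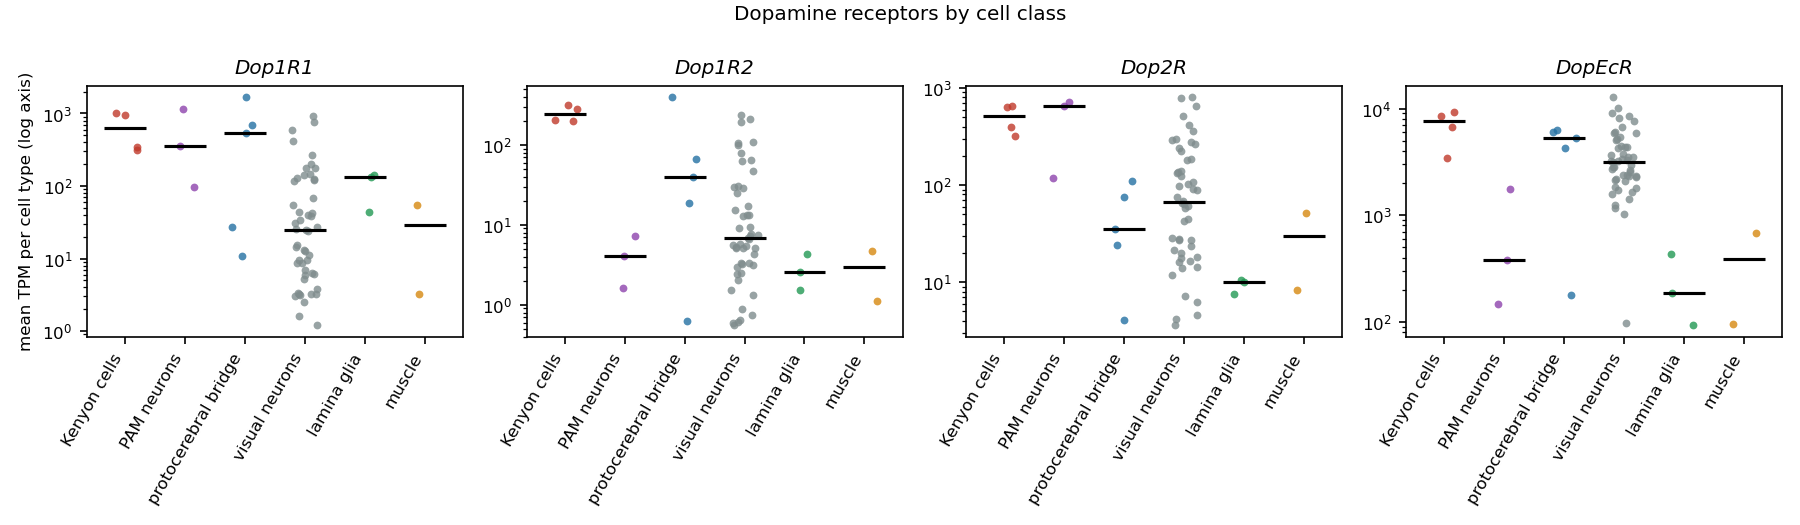
Mean TPM of each receptor gene per cell type (points, log axis) in the 6 classes, with a bar at the class median. Kenyon cell types sit above nearly all visual types for Dop1R1 and Dop1R2, PAM types lie at 1.6 to 7.2 TPM for Dop1R2, and glia and muscle lie at the bottom for DopEcR.

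Within the mushroom body the Kenyon cell types differed less. Dop1R1 was 311.0 and 311.8 TPM in the 2 core libraries, 328 and 352 in the surface libraries, 892 and 1144 in the posterior libraries, and 706, 827, 1040 and 1187 in the 4 dorsal γ libraries. The core and surface cells were thus low, and the posterior and γ cells high, with no overlap between these pairs. The pairs were formed after the values were seen, and how many other genes separate them so was not counted. Dop2R showed the same order, with 308 to 402 TPM in core and surface cells and 565 to 759 in posterior and γ cells. DopEcR went a different way: the posterior cells held 2813 and 4107 TPM, the lowest of the class, and the surface cells 9045 and 9316. Dop1R2 was 186 to 209 TPM in core and surface libraries and 235 to 403 in the others, and the γ drivers differed from each other (235 and 259 against 372 and 403). When the dorsal γ libraries were compared with the 6 α/β libraries together, none of the receptors passed the test, in which 4.64% of 7283 genes were called in either direction: the log2 differences were 0.96 (SE 0.37, limma adjusted p = 0.168) for Dop1R1, 0.46 (0.23, 0.288) for Dop1R2, 0.58 (0.23, 0.187) for Dop2R and 0.49 (0.31, 0.422) for DopEcR. Exact permutation tests gave unadjusted p of 0.1, 0.0571, 0.0524 and 0.238. Without KC_ab_p replicate 2 the Dop1R1 difference was 1.21 and passed (adjusted p = 0.0324).

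PAM dopamine neurons carried a different set. Dop1R1 and Dop2R overlapped their Kenyon cell levels, Dop1R2 was at 1.30 to 8.85 TPM, and DopEcR had a median of 382 TPM over the 6 libraries, below its level in every visual type except L3. Dop1R1 was 425 and 295 TPM in PAM_1, 1319 and 1007 in PAM_3, and 79.6 and 117 in PAM_4. Dop2R, the receptor known as an autoreceptor, was 789 and 650 TPM in PAM_1, 628 and 677 in PAM_3, and 106 and 131 in PAM_4. For both genes PAM_4, the group with the high glia marker sum but little repo, was the lowest, and PAM_1 and PAM_3 lay near or within the Kenyon cell range. Dop1R2 was 4.51 and 3.65 TPM in PAM_1, 5.57 and 8.85 in PAM_3, and 1.30 and 1.93 in PAM_4, all below the no-driver bead range but within that of the second-step mocks. DopEcR was 1573 and 1929 TPM in PAM_1, 432 and 331 in PAM_3, and 189 and 107 in PAM_4, so the 3 groups did not overlap and those of PAM_3 and PAM_4 fell below the no-driver beads. How many of all genes separate these groups, each of 2 libraries, was not counted.

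Against visual neurons, DopEcR was lower in PAM by 2.73 (SE 0.71, limma adjusted p = 0.00528) and Dop1R1 was higher by 3.70 (SE 1.34, adjusted p = 0.0392). This makes 1 receptor higher and 1 lower, where 6.73% of all genes were called higher and 14.8% lower in PAM. Dop2R differed by 2.59 (SE 1.09, adjusted p = 0.0754) and Dop1R2 by −1.17 (SE 1.14, 0.468). The Dop1R1 call was lost with TAPIN libraries alone (2.89, adjusted p = 0.135) and when any PAM group was left out (0.0604 to 0.234), and the DopEcR call was lost without PAM_4 (−1.90, 0.144), where 2.08% of all genes were called higher and 6.49% lower. Adding the 6 PAM drivers marked suboptimal by the authors, an alternative chosen after seeing the data, gave 9 groups in which DopEcR was lower by 3.05 (adjusted p = 2.18e-08), and Dop2R was higher by 2.78 (0.000109), where 52.0% of 10519 genes were called lower and 8.31% higher and the median difference was −0.77. In those 12 further libraries DopEcR was 108 to 873 TPM, Dop1R2 0.22 to 8.50, Dop2R 223 to 696 and Dop1R1 26.1 to 682, with glia markers summing to 161 to 409 TPM.

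The direct comparison of Kenyon cells with PAM, the cells that receive and release dopamine in the same lobes, separated 2 receptors. Dop1R2 was higher in Kenyon cells by 5.69 (SE 1.47, limma adjusted p = 0.0128) and DopEcR by 3.82 (SE 0.92, 0.0072), whereas Dop1R1 and Dop2R differed by 0.71 (SE 1.72, 0.909) and 0.32 (SE 1.40, 0.955). So 2 of the 4 receptors were called higher, where 0.893% of all genes were called higher and 3.81% lower. The lowest Kenyon cell library held 186 TPM of Dop1R2 and the highest PAM library 8.85, and for DopEcR these were 2813 and 1929 TPM. With 4 types against 3 the exact permutation test cannot go below p = 0.0286, which both genes reached. Both calls were lost without PAM_4, where the differences were 5.26 (adjusted p = 0.125) and 2.99 (0.162) and 0.338% of all genes were called higher and 0.598% lower. Over all 16 Kenyon cell libraries, including the suboptimal α′/β′ drivers and a driver of several α/β types, and all 18 PAM libraries, the ranges of these 2 genes did not overlap either (144 to 482 against 0.22 to 8.85 TPM for Dop1R2, and 2813 to 11566 against 107 to 1929 for DopEcR). The share of all genes without overlap was not counted.

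**Figure D3:**
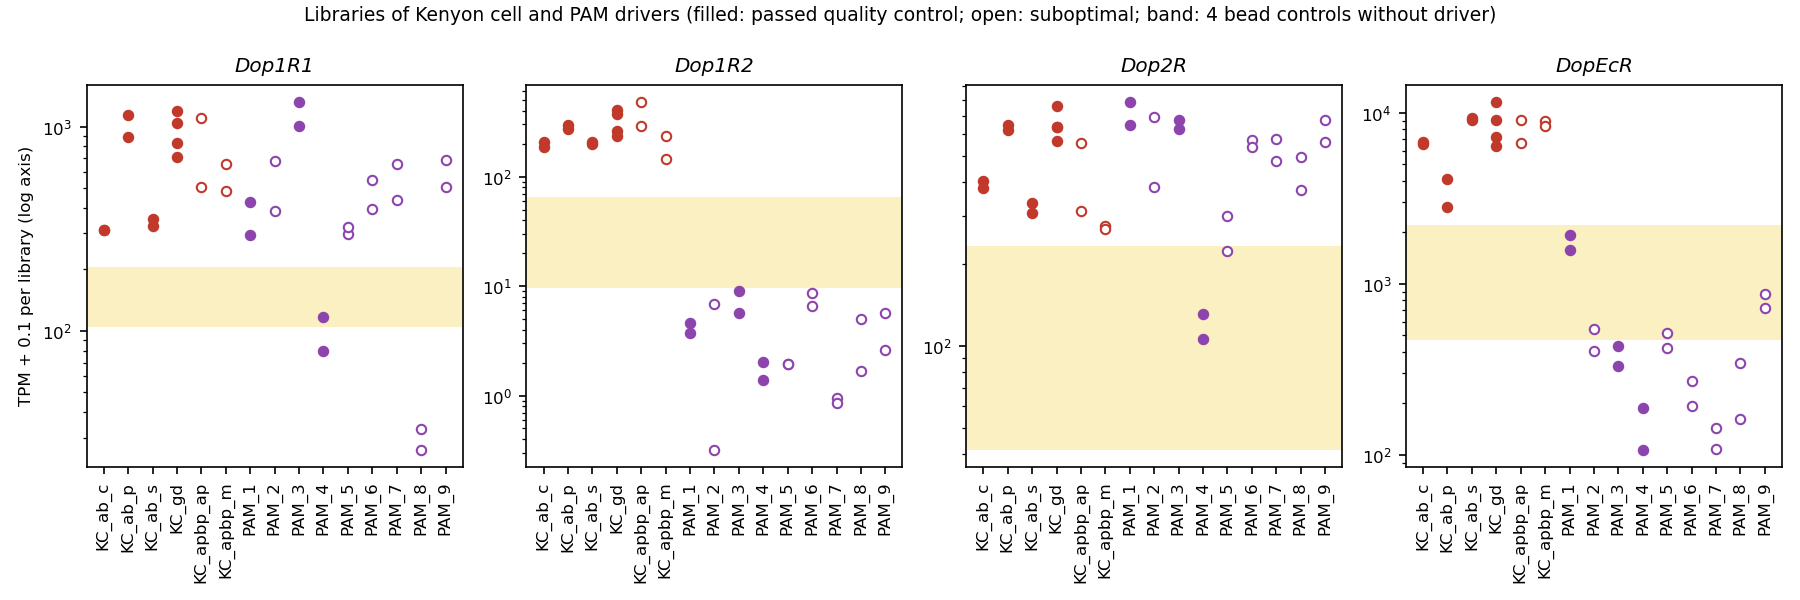
Level of each receptor gene (TPM + 0.1, log axis) in every single-type Kenyon cell and PAM library, filled where the library passed quality control and open where it was marked suboptimal, with a band for the range of the 4 no-driver bead controls. Dop1R2 and DopEcR separate the classes, and Dop1R1 and Dop2R overlap.

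**Figure D4:**
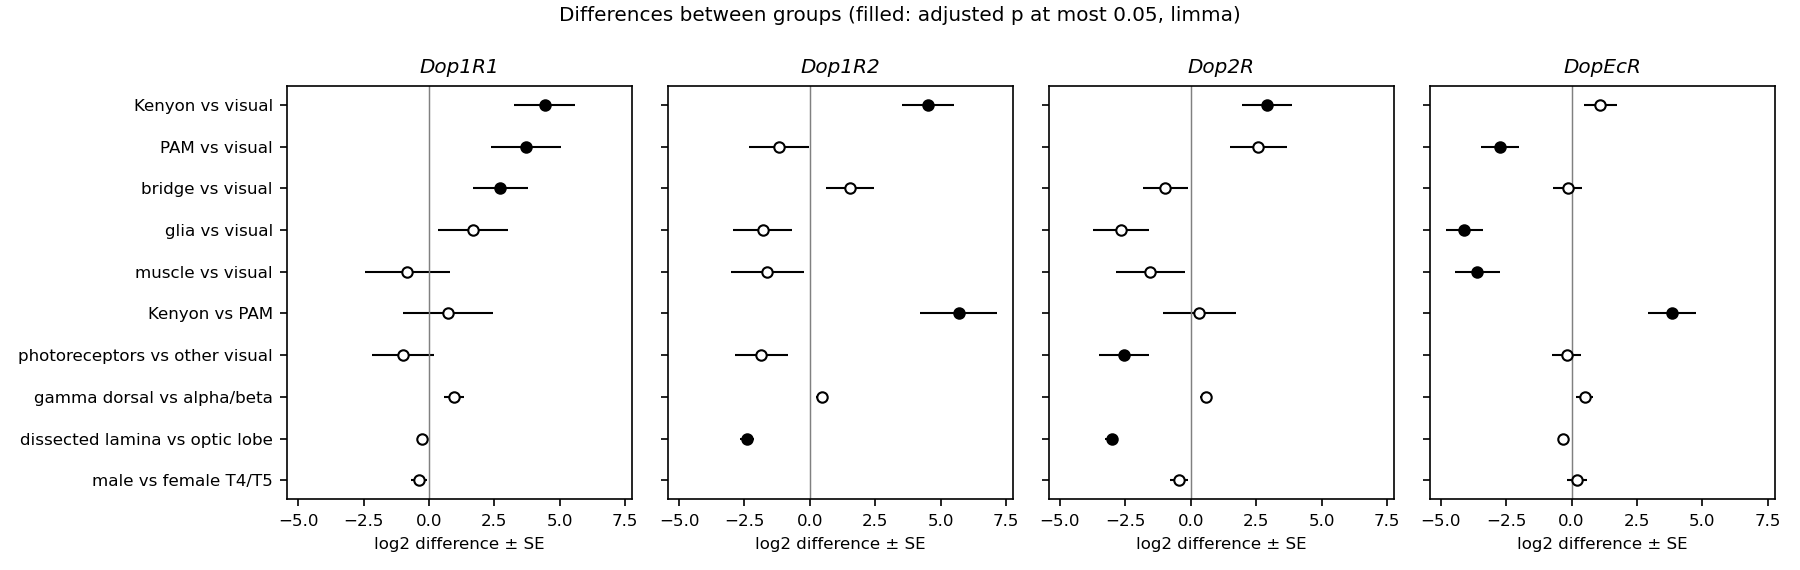
Difference in mean log2(TPM + 1) of each receptor between the groups of each comparison, first minus second, with bars of 1 SE. Points are filled where the limma adjusted p was at most 0.05. The rows compare each other class with the visual types, Kenyon cells with PAM, and photoreceptors with other visual types. Further rows compare γ with α/β Kenyon cells, dissected lamina with optic lobe, and male with female. Against visual types, Kenyon cells are filled for Dop1R1, Dop1R2 and Dop2R, and PAM and bridge neurons for Dop1R1. Glia, muscle and PAM are filled below 0 for DopEcR.

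The protocerebral bridge neurons, which belong to the central complex, varied widely among themselves. PB_1 was low for all 4 receptors: 15.7 and 5.72 TPM for Dop1R1, 0.27 and 0.98 for Dop1R2, 3.40 and 4.74 for Dop2R, and 184 and 170 for DopEcR. Its neuron markers were not low, at 12274 to 12301 TPM, and its glia markers were at 71.8 to 113. PB_5 had the highest Dop1R1 of all 67 types (1602 and 1732 TPM), and PB_2 the highest Dop1R2 (330 and 454 TPM). PB_4 was high for Dop1R1 as well, although its drivers differed (387 and 452 against 1006 and 970 TPM). PB_3, whose driver marks more optic lobe cells than bridge neurons, was low at 18.1 and 36.0 TPM. Dop2R stayed at or below 114 TPM in every bridge library. DopEcR lay between 4102 and 6668 TPM in every library of the other 4 types, so PB_1 stood apart.

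Taken as a class against visual neurons, the bridge types were higher in Dop1R1 by 2.72 (SE 1.06, limma adjusted p = 0.0395), so 1 of 4 receptors was called higher and none lower, where 2.57% of all genes were called higher and 31.1% lower. Dop1R2 differed by 1.54 (SE 0.90, adjusted p = 0.176), Dop2R by −0.97 (SE 0.86, 0.377) and DopEcR by −0.15 (SE 0.56, 0.848). The Dop1R1 call was lost with TAPIN libraries alone (1.90, adjusted p = 0.214) and without PB_2, PB_4 or PB_5 (0.132, 0.145 and 0.199). It was kept without PB_1 and without PB_3, the group that holds mostly optic lobe cells. Without PB_1 the Dop1R2 difference passed (2.61, adjusted p = 0.0299) and that of DopEcR turned positive (0.83).

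Lamina glia and muscle had little DopEcR. In the glia it was 324 to 678 TPM in epithelial glia, 80.4 and 105 in marginal glia (Glia_Mg), and 43.6 to 319 in proximal satellite glia (Glia_Psg), whose pair of drivers gave 43.6 and 99.6 against 282 and 319. Only L3 among the 50 visual types was below the highest glia type. Muscles_App held 77.0 and 112 TPM and Muscles_Head 806 and 543, and L3 was again the only visual type below the higher of them. Dop1R1 was the receptor with the highest mean in marginal glia (103 and 166 TPM) and in the first driver of proximal satellite glia (173 and 293). In the marginal glia library at 103 TPM, DopEcR was slightly higher at 105. Of these Dop1R1 values only that at 293 TPM lay above the range of the no-driver beads. Dop1R2 did not exceed 13.2 TPM in any glia library or 5.23 in any muscle library, and Dop2R did not exceed 12.8 in glia or 62.2 in muscle.

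DopEcR was lower than in visual neurons by 4.10 in glia (SE 0.71, limma adjusted p = 4.07e-06) and by 3.60 in muscle (SE 0.87, 0.000858). In each case 1 of 4 receptors was called lower and none higher, where 13.5% of all genes were called lower and 12.1% higher in glia and 9.33% lower and 14.9% higher in muscle. With TAPIN libraries alone the differences were −4.64 (adjusted p = 1.82e-08) and −4.15 (1.23e-05). The glia call held when each glia type was left out (−4.72 to −3.63), and the muscle call was lost without Muscles_App (−2.19, adjusted p = 0.284). The other 6 differences did not pass: Dop1R1 by 1.67 (adjusted p = 0.398) and −0.83 (0.77), Dop1R2 by −1.81 (0.259) and −1.62 (0.447), and Dop2R by −2.66 (0.0623) and −1.56 (0.44), glia first. The Dop2R difference in glia passed with TAPIN libraries alone (−2.83, adjusted p = 0.0464).

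Within the visual system each receptor had its own pattern. Dop1R1 was lowest in the lamina and higher in the lobula complex: 8 of 11 lamina-associated types were under 10 TPM, with a median of 3.74, the 23 medulla types had a median of 14.2, and 9 of 12 lobula complex types were at or above 100 TPM, with a median of 127. Region and protocol coincide here, since 10 of the 11 lamina types were made with INTACT alone and all 12 lobula complex types with TAPIN, and they cannot be told apart. In the medulla the median was 10.2 TPM over the 6 types made with INTACT alone and 19.0 over the 16 made with TAPIN alone. Among types made both ways, Dop1R1 was 40.3 and 66.6 TPM with INTACT against 12.9 and 16.8 with TAPIN in R1-6. In Dm12 Dop1R1 was 215 and 224 against 172 TPM, and in Lawf1, where the drivers differed, 31.5 and 34.6 against 42.5 and 46.9. Its highest visual levels were in Pm4 (880 and 982 TPM), Dm9 (784 and 753) and LPi-34 (545 and 636), and its lowest in C3 (1.01 and 1.39). Dop1R2 was under 10 TPM in 31 of 50 visual types. Pm4 (232 and 237 TPM), Dm12 (190 to 233) and LPLC2 (181 and 208) were the highest, and they are joined above 100 TPM only by LC16 and Dm8. Dop2R was highest in LC10b (725 and 875 TPM), the type with muscle markers, then in Dm1 (735 and 832) and Tm3 (648 and 658), and lowest in R8_Rh6 (3.13 and 4.06). High Dop2R did not always come with high Dop1R1, since Tm3 held 5.65 and 6.86 TPM of Dop1R1 and Dm1 a mean of 11.2.

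DopEcR was above 1000 TPM in 49 of the 50 visual types. It reached 10312 and 15121 TPM in Dm3, 9739 and 10275 in Dm8 and 7811 to 9884 in T4, and it was the most abundant coding transcript of at least 1 visual type. The exception was the lamina neuron L3, with 95.2 and 100.4 TPM, far below the next type, T1, at 995 and 1056. L3 was also at 15.9 and 14.7 TPM of Dop1R1 and 0.49 and 0.69 of Dop1R2, but at 101 and 93.9 of Dop2R. Its 4 neuron markers summed to 3279 to 3294 TPM, near the bottom of the visual range of 2445 to 36982, and its glia markers to 163 to 186. Mi15, the only visual type with dopamine neuron markers in the PAM range (7128 to 8914 TPM), differed from PAM: DopEcR was 2535 to 6881 TPM, Dop1R1 5.15 to 8.00, Dop1R2 4.60 to 9.88 and Dop2R 47.7 to 73.6 over its 4 libraries.

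Photoreceptors, the neurons that start the visual pathway and release histamine, had low Dop2R, as did some other visual types. Of the other 46, 13 lay below the highest photoreceptor type. Over the 10 libraries of R1-6, R7, R8_Rh5 and R8_Rh6 it ran from 3.13 through a median of 18.1 to 46.7 TPM, with all 4 types under the median of the visual types. Against the other 46 visual types Dop2R was −2.56 on the log2 scale (SE 0.95, limma adjusted p = 0.0286, exact permutation p = 0.0106). Thus 1 of the 4 receptors was called lower in photoreceptors, where 28.2% of 9753 genes were called lower, so the count does not set the receptors apart from genes in general. The other receptors did not pass, with differences of −0.99 (adjusted p = 0.522) for Dop1R1, −1.85 (0.136) for Dop1R2 and −0.18 (0.814) for DopEcR, which stayed between 1933 and 3983 TPM in every photoreceptor library. With TAPIN libraries alone the Dop2R difference was −2.96 (adjusted p = 0.0117), and it was lost after quantile normalization (−2.06, 0.0881) and without R8_Rh5 (0.0963) or R8_Rh6 (0.138).

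Total RNA from dissected tissue gave a view that does not depend on nuclear capture. In the 4 dissected lamina libraries Dop2R was 14.6, 12.9, 32.8 and 21.5 TPM, against 163, 154, 172 and 164 in the 4 libraries of the remaining optic lobe. In both tissues these libraries are labelled d1, d2, d1 and d2 in this order, labels that the test did not use. Dop1R2 was 1.64, 1.82, 4.76 and 2.92 TPM in the lamina, against 16.9, 15.8, 21.0 and 18.7. Both genes separated the tissues without overlap and were lower in the lamina, Dop2R by 3.02 (SE 0.25, limma adjusted p = 1.71e-05) and Dop1R2 by 2.40 (SE 0.28, 0.000122). How many of all genes separated the tissues without overlap was not counted. In such mixed tissue, fewer cells of a type and less RNA per cell cannot be told apart. Dop1R1 was 49.2 to 76.5 TPM against 68.4 to 79.9, and DopEcR 623 to 1065 against 969 to 1075, with overlapping groups and differences of −0.26 (SE 0.16, adjusted p = 0.187) and −0.33 (SE 0.15, 0.0879). This places 2 of the 4 receptors among the genes called lower, which were 45.4% of the 7470 tested. The median over all genes was −0.47 (−0.14 after quantile normalization, where Dop1R1 differed by 0.04). Without lamina replicate 2 the differences of Dop1R1 (−0.37, adjusted p = 0.0327) and DopEcR (−0.45, 0.00484) also passed.

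The T4 and T5 motion-detecting neurons were profiled from females and males separately, 2 libraries each. Dop1R1 was 101 and 87.8 TPM in females and 62.8 and 81.4 in males, Dop2R 63.6 and 62.9 against 41.4 and 52.1, and DopEcR 7634 and 11220 against 13916 and 8157. Dop1R2 was 0.80 to 1.63 TPM in all 4 and fell below the filter on low values. Male minus female differences were −0.39 (SE 0.31) for Dop1R1, −0.44 (SE 0.35) for Dop2R and 0.20 for DopEcR, each with a limma adjusted p of 1. Of 6329 genes tested, 0% (0 genes) passed, 90 had an unadjusted p under 0.05, and with 2 libraries against 2 an exact permutation test cannot go below p = 0.333.

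The authors' mixture model gives each gene in each cell type a probability of being on. Calling a gene on from 0.8 and off up to 0.2, Dop1R2 was on in 20 of 67 types and off in 45, Dop2R on in 32 and off in 28, and DopEcR on in 58 and off in 8. Dop1R1 was given a probability of 1 in every type, from C3 at 1.20 TPM to PB_5 at 1667, so its state carries no information here. All 4 Kenyon cell types were on for the 3 informative receptors, a combination shared with PB_4, PB_5 and 8 visual types (Tm4, Tm29, Dm12, Pm4, LC16, LC10a, LC10b and LLPC1). The commonest combination, in 17 types, was DopEcR as the only one of these 3 receptors, which held all 4 photoreceptors, L1, L2, T1, T4, T5 and Dm9. Dop1R1 is not part of these combinations, and its means in those 17 types ran from 2.55 TPM in T1 to 769 in Dm9, with 144 in T4 and 267 in T5. Dop2R with DopEcR was found in 14 types, among them Dm1, Tm3 and PAM_1. Only L3, PAM_3 and PAM_4 were on for Dop2R and off for the other 2, and the 3 glia types, PB_1 and Muscles_App were off for all 3. The probability was between 0.2 and 0.8 for 2 types in Dop1R2, 7 in Dop2R and 1 in DopEcR, and thresholds of 0.9 and 0.1 left 19, 31 and 58 types on.

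The receptors' levels were only loosely related to each other across types. Pearson's r over the 67 types was 0.50 between the D1-like receptors Dop1R1 and Dop1R2, 0.47 between Dop1R2 and Dop2R, 0.43 between Dop1R1 and Dop2R, and 0.45, 0.28 and 0.14 between DopEcR and Dop1R2, Dop2R and Dop1R1. These are descriptions, since types share protocols and related lineages. Among 10411 genes the profile most like that of Dop2R was CG9570 (r = 0.85), a gene that lies on the opposite strand inside a Dop2R intron (X:20051294-20052519), with no exon overlapping those of Dop2R and 6272 bases to the nearest. It was listed at 0 to 102 TPM, highest in LC10b, and how the authors' counting treats intronic reads at this site was not tested. For Dop1R1 the most similar profiles were Cirl (0.67), CG6912 (0.67) and CG15719 (0.66), for Dop1R2 CG30158 (0.63), CG42402 (0.58) and rad (0.57), and for DopEcR CG33181 (0.79), CG43867 (0.76) and dao (0.76). After CG9570 the closest to Dop2R were CG43102 (0.65) and nAChRalpha1 (0.62).

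The 4 genes have several annotated transcripts each, all on the minus strand of dm6: Dop1R1 (FBgn0011582) 5 at 3R:14165379-14214810, Dop1R2 (FBgn0266137) 3 at 3R:29630304-29659984, Dop2R (FBgn0053517) 6 at X:20004680-20062706 and DopEcR (FBgn0035538) 3 at 3L:4367649-4380387. Each transcript's share of its gene's TPM is a model estimate from short reads, and was compared only in TAPIN libraries and in types with at least 50 TPM of the gene. The Dop2R transcript FBtr0070034, which starts downstream of the others, was 43.2% ± 4.91 (SD, n = 4 types) in Kenyon cells and 27.7% ± 8.70 (n = 21) in visual types (exact permutation p = 0.00134, 0.0175 after adjustment over the 26 tests made). The DopEcR transcript FBtr0100186 was 2.19% ± 0.367 (n = 4) in Kenyon cells and 6.47% ± 1.78 (n = 34) in visual types (exact permutation p = 4.06e-05, adjusted 0.00106). FBtr0073337 of DopEcR was 40.8% ± 3.74 (n = 3) in PAM and 49.5% ± 5.00 (n = 34) in visual types (exact permutation p = 0.00425, adjusted 0.0368). Transcript shares in PAM were not tested without PAM_4. The other 23 comparisons had an adjusted p above 0.05.

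The widest contrasts in transcripts did not pass. The Dop1R2 transcripts FBtr0085467 and FBtr0330293, which were summed, took 83.3% of the gene in Kenyon cells and 54.7% in 9 visual types (adjusted p = 0.132, exact permutation test), and FBtr0343167 of Dop2R took 71.9% in PAM and 50.4% in 21 visual types (adjusted p = 0.0578). The Dop2R transcript FBtr0343171 has a 135-base exon (X:20007630-20007764) that FBtr0343167 lacks and FBtr0070034 also has. FBtr0343171 was estimated at 0 in all 10 Kenyon cell libraries and at no more than 0.00226% in PAM, while it took 0 to 60.5% in visual TAPIN libraries (adjusted p = 0.135 and 0.154, exact permutation tests). The exon itself is not absent from the Kenyon cell estimates, since FBtr0070034 took 43.2% of Dop2R there. The long Dop1R1 transcript FBtr0308191, with a last exon of 13082 bases against 1178 in the others, took 59.7% to 99.3% in the Kenyon cell types. For DopEcR the share of FBtr0073337, whose last exon is 604 bases against 2089, differed between the purifications, although these are mostly of different types: its median over visual types was 19.2% (9.19 to 45.8, 19 types) with INTACT and 50.4% (39.7 to 58.1, 34 types) with TAPIN.

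**Figure D5:**
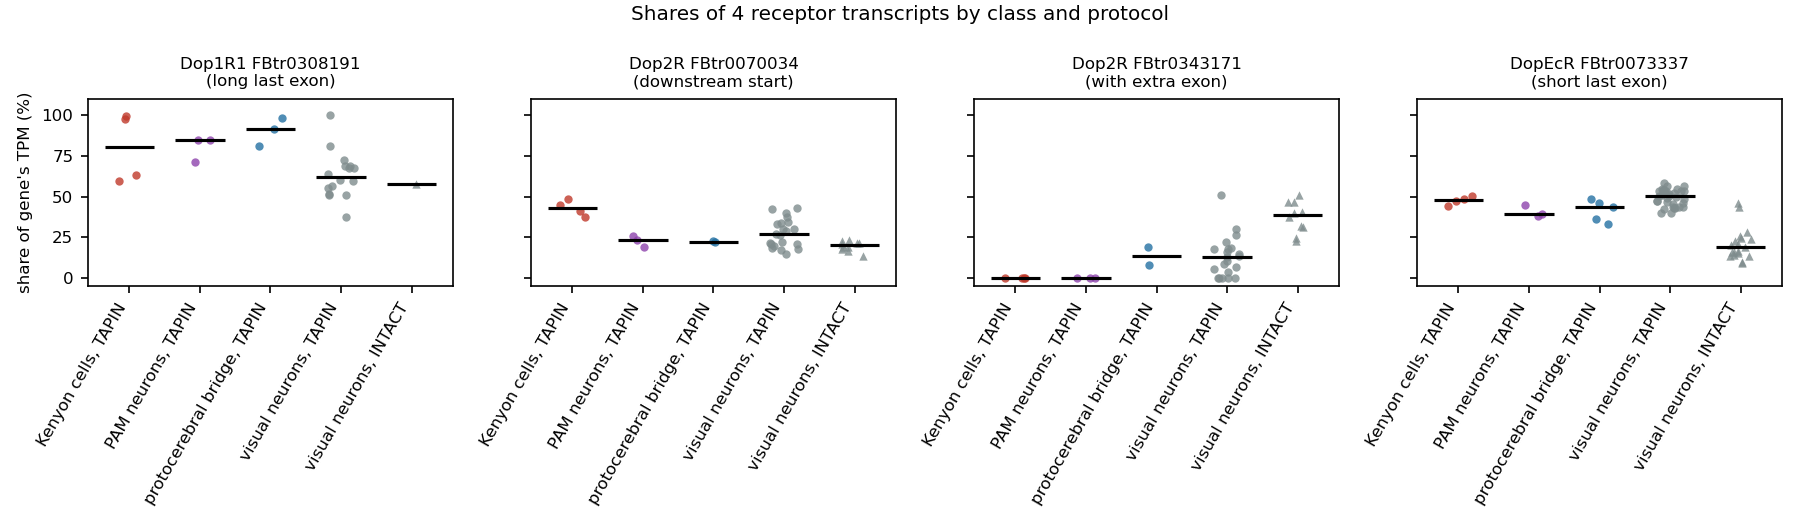
Share of the gene's TPM (%) taken by 4 transcripts in each cell type (points), by class and purification protocol, with a bar at the median. FBtr0070034 of Dop2R is higher in Kenyon cells, FBtr0343171 is at 0 there, and FBtr0073337 of DopEcR is lower in INTACT than in TAPIN visual types. The extra exon named in the panel of FBtr0343171 is also part of FBtr0070034.

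The level of DopEcR also differed between the protocols. It had a median of 1863 TPM (95.2 to 2930) in the 40 INTACT visual libraries and 4415 (1634 to 15121) in the 83 TAPIN ones, which are mostly of different types. In the types made both ways it was 2090 and 2194 against 3561 and 3983 TPM in R1-6, 2291 and 2343 against 5710 and 6620 in Lawf1, and 1265 and 1345 against 5382 in Dm12. TAPIN was thus higher in each. R1-6 and Dm12 were made with 1 driver under both protocols, with 1 passing TAPIN library of Dm12, whereas in Lawf1 the drivers differed, so that protocol and driver cannot be told apart there. Dop2R in Lawf1 went the other way, with 163 and 167 TPM in INTACT and 14.9 and 20.2 in TAPIN libraries. Over the 14 types with at least 2 drivers, the median ratio of the higher to the lower driver mean was 1.55 for Dop1R1, 1.89 for Dop1R2, 1.06 for Dop2R and 1.42 for DopEcR, and the largest were 4.60, 10.6 and 4.20 in Glia_Psg for Dop1R1, Dop1R2 and DopEcR and 9.42 in Lawf1 for Dop2R.

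Genes that act before and after the receptors were taken from fixed lists. Of 9 genes of dopamine synthesis, packaging, uptake and breakdown, 5 were higher in PAM than in visual neurons, namely ple (tyrosine hydroxylase, by 6.21), Vmat (vesicular transporter, 9.04), DAT (dopamine transporter, 8.86), Pu (2.52) and pr (1.71), which are enzymes of pterin synthesis, where 6.73% of all genes were called higher. Without PAM_4, ple (5.55), Vmat (9.46) and DAT (9.37) passed, and Pu (1.98, adjusted p = 0.15) and pr (1.32, 0.092) did not. Pu was at 146 to 1259 TPM in the glia types, and at 63.2 to 219 in the PAM types. In Kenyon cells 0 of the 9 passed (limma), 1 being higher and 2 lower at an unadjusted p under 0.05. Of 15 tested genes of the cyclic AMP pathway, 5 were higher and none lower in Kenyon cells: rut, the adenylyl cyclase of the learning pathway (2.63), dnc, the phosphodiesterase (1.51), Pde8 (3.82), and the protein kinase A subunits Pka-C1 (2.93) and Pka-R2 (3.35), with a list median of 0.71 against −0.58 over all genes, of which 2.72% were called higher and 13.4% lower. In PAM, 5 were higher as well, namely Ac13E, Ac78C, Pde8, Pka-C1 and Pka-R2 (list median 0.63 against −0.46, with 6.73% of all genes called higher), and without PAM_4 Pde8 (3.00, adjusted p = 0.115) and Pka-R2 (1.24, 0.0647) did not pass. The genes rut, Pka-C1 and Pka-R2 were higher in Kenyon cells than in PAM, rut by 3.91, where 0.893% of all genes were called higher, and without PAM_4 Pka-C1 did not pass (1.54, adjusted p = 0.119). Of 9 heterotrimeric G protein genes, Galphao (1.08) and Gbeta13F (0.91) were higher in Kenyon cells (list median 0.09), where 2.72% of all genes were called higher.

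Receptors of other amines were taken from fixed lists as well. Among 5 serotonin receptors, 5-HT1A was higher in Kenyon cells (3.37, SE 1.22, limma adjusted p = 0.0473), and none passed in PAM or bridge neurons, where none had an unadjusted p under 0.05 either. Among 8 octopamine and tyramine receptors, Octbeta2R was lower in Kenyon cells (−2.86, SE 0.80, limma adjusted p = 0.0119), TyrRII was higher in PAM (1.88, SE 0.58, limma adjusted p = 0.0164) and TyrR in bridge neurons (1.99, SE 0.81, 0.0488). The TyrRII call was lost without PAM_4 (1.29, adjusted p = 0.226), and its level was 3.96 to 20.4 TPM in the PAM types and 42.1 to 672 in the glia types. The medians of these lists in Kenyon cells were −0.85 and 0.04, against 3.66 for the 4 dopamine receptors and −0.58 over all genes. Of 5 Gq effectors, 3 desensitization genes and the 2 genes of the ecdysone nuclear receptor, 0 passed in Kenyon cells or PAM (limma), and in Kenyon cells 1, 1 and 1 had an unadjusted p under 0.05.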

How the data were processed

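Nuclear RNA libraries (and total RNA for dissected lamina and optic lobe) had been sequenced as 50-base reads, and the authors estimated transcript levels with kallisto 0.43.1 against Ensembl 91 transcripts (dm6), removed spike-ins, tag constructs and rRNA, and rescaled each library, so the deposited gene and transcript values are TPM. The deposited fractions are the authors' probabilities that a gene is on, from a 2-component mixture model over cell types, and the authors' deposited score of each fit compares it with a single component. Read counts were not used here, so depth is unknown. Each library's group came from its driver label, and only libraries marked as passing quality control entered the main comparisons.

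Here TPM was transformed to log2(TPM + 1). For class comparisons each of the 67 single cell types was a single value, the mean over its libraries, and the 6 classes were fitted together; γ against α/β Kenyon cells, lamina against optic lobe, and male against female used libraries. Tests were limma 3.58.1 in R 4.3.3 (lmFit, eBayes with trend, two-sided, Benjamini-Hochberg at 0.05) over the coding genes that reached 10 TPM in 2 or more of the fitted units, checked on simulated data, with exact permutation tests beside them (scipy 1.17.1). Fold differences understate the change of low genes because of the pseudocount. Transcripts with identical sequence were summed. Gene positions are from the BDGP6.54 annotation, which uses the dm6 coordinates.

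The named genes are the 4 receptors, fixed pathway lists (92 genes with the marker lists, all matched, 2 by gene ID) and the 3 genes most like each receptor by Pearson's r. The receptors, lists and tests were chosen with earlier results of these data known. Alternatives were a pseudocount of 10, no filter, quantile normalization, TAPIN libraries alone, libraries as samples, each unit left out, and suboptimal drivers added. The values of the pathway lists without PAM_4 were added after the data were seen. No library pair was identical (0 pairs), and the means of the 4 genes matched the authors' deposited means to within 0.0075 TPM. Python 3.11.15, numpy 2.4.6, pandas 2.3.3 and matplotlib 3.10.9 were used.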

Additional observations from a re-analysis of the deposited data

Results flagged for a closer look

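Of the 92 groups of 4 to 10 samples tested for a value far from the rest, 4 were flagged, where chance flags about 1 in 20. PB_1 had a mean of 177 TPM of DopEcR, and the other 4 bridge types had 4302 to 6271. For DopEcR in the libraries of PB_4, replicate 2 was the lowest at 4319 TPM, against 5418 to 5648 in the others. For Dop2R, L1 replicate 3 held 9.36 TPM against 5.18 to 5.38 in the other L1 libraries, and LC16 replicate 2 held 391 TPM against 355 to 356 in the others.

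The 47 suboptimal libraries, which the main comparisons do not use, carried receptor signal above the highest of the 12 background control libraries (beads and mock captures). For Dop1R1 this held in 16 libraries (above 355 TPM, up to 1098), for Dop1R2 in 5 (above 124, up to 482), for Dop2R in 1 (above 828, the LC10bc driver at 1202) and for DopEcR in 22 (above 2219, up to 9090).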

How the results depend on the processing

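Over 39 comparisons of a receptor, 13 were called. The share of all genes called in either direction ran from 0% (male against female) to 59.6% (lamina against optic lobe). Of the 466 values recomputed, 415 kept direction and call, 9 reversed, 21 lost a call and 21 gained one. The cause of each change below was not tested, except that leaving out units also leaves fewer values to test. TPM without counts gives no depth, so low values, such as Dop1R2 in PAM or glia, have no counting error here.

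Counts of genes called moved with the unit, the scaling and the types that entered. For Kenyon cells against visual neurons, 1676 genes (283 higher, 1393 lower) became 1056 with a pseudocount of 10, 684 (404 and 280) after quantile normalization, 769 with TAPIN alone and 4666 with suboptimal drivers. For PAM, 2242 became 1236 with TAPIN alone and 6347 with suboptimal drivers. For bridge neurons, 3506 (268 and 3238) became 1283 (458 and 825) after quantile normalization and 1290 with TAPIN alone. That normalization also moved the split of calls in muscle (1552 and 971 to 1602 and 1764), KC against PAM (93 and 397 to 312 and 398), and lamina against optic lobe (to 1551 and 2155). Leaving out 1 unit gave 269 to 1909 genes for Kenyon cells, 887 to 1392 for PAM, 1589 to 3561 for bridge, 1118 to 1607 for muscle, 97 to 654 for KC against PAM, 173 to 590 for γ against α/β and 4 to 69 for male against female, with the lowest counts for Kenyon cells without KC_ab_s and for KC against PAM without PAM_4.

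Title numbers did not pair the samples: deviations of same-numbered libraries correlated at −0.18 to 0.13 for Kenyon cells and, where the label d1 or d2 was also the same, −0.0017 to 0.15 for lamina and optic lobe. The d1 and d2 labels of the dissected libraries did show structure. Pairs sharing that label correlated at −0.013 to 0.15, and pairs of different labels at −0.19 to −0.031. The main test left this out, and with a block for label and number 1067 genes were higher and 3224 lower in the lamina. With libraries as samples and the replicate block, 4204, 4160, 6015, 5823, 3994 and 1719 genes were called for Kenyon cells, PAM, bridge, glia, muscle and KC against PAM (main counts of the last 3 were 2663, 2523 and 490), and 4152, 4107, 5930, 5763, 3954 and 1707 without the block. These fits tested 11550 genes against 10411 in the main fits, so the unit and the genes tested changed together. With the block and without it, calls were gained for DopEcR in Kenyon cells (1.07 and 1.06), Dop2R in PAM (2.58 in both), Dop1R2 in bridge neurons (1.74 and 1.73), Dop1R2 in glia (−1.70 and −1.71), Dop2R in glia (−2.66 in both) and Dop1R2 in photoreceptors (−1.90 and −1.64). For the sexed libraries same-numbered deviations correlated at −0.54, and the replicate block called 1 gene, the crossed pairing 153 (42 and 111) and the main fit 0.

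Among receptor values, Dop2R in Kenyon cells lost its call with TAPIN alone (2.74), as did Dop1R1 in PAM (2.89) and in bridge neurons (1.90, and 2.72 with no filter), and Dop2R in photoreceptors after quantile normalization (−2.06). Suboptimal drivers gained DopEcR in Kenyon cells (1.21) and Dop2R in PAM (2.78). Dop2R in glia gained a call with TAPIN alone (−2.83), and the permutation test passed it (−2.66) and Dop2R in PAM (2.59). Values that reversed were DopEcR in bridge neurons without PB_1 (0.83) and with suboptimal drivers (0.12), Dop1R1 in muscle without Muscles_App (0.99), Dop1R1 and Dop2R in KC against PAM without PAM_4 (−0.19 and −0.52), Dop2R there with suboptimal drivers (−0.038), Dop1R1 in the lamina after quantile normalization (0.0398), and DopEcR in males against females without single libraries (−0.18 and −0.075).

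Leaving out 1 unit gave ranges of 2.76 to 3.10 for Dop2R in Kenyon cells, 2.83 to 4.61 for Dop1R1 and −3.70 to −1.90 for DopEcR in PAM, 1.90 to 3.73, 0.62 to 2.61 and −0.45 to 0.83 for Dop1R1, Dop1R2 and DopEcR in bridge neurons, and −2.64 to 0.99 for Dop1R1 and −5.01 to −2.19 for DopEcR in muscle. They were −0.19 to 1.59, 5.26 to 6.07, −0.52 to 0.78 and 2.99 to 4.79 for Dop1R1, Dop1R2, Dop2R and DopEcR in KC against PAM, −2.93 to −2.08 for Dop2R in photoreceptors, 0.83 to 1.21 for Dop1R1 in γ against α/β, −0.37 to −0.16 and −0.45 to −0.20 for Dop1R1 and DopEcR in the lamina, and −0.18 to 0.59 for DopEcR in males against females.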

Other observations

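Groups marked suboptimal by the authors were not compared, but their values extend the mushroom body circuit. Both drivers of α′/β′ Kenyon cells, a class with no library that passed, were high for all 4 receptors: Dop1R1 was 507 and 1098 TPM in KC_apbp_ap and 483 and 652 in KC_apbp_m, Dop1R2 was 289 and 482 and 144 and 234, Dop2R was 314 and 557 and 270 and 276, and DopEcR was 6690 and 9090 and 8307 and 8914. Mushroom body output neurons, which Kenyon cells contact, were profiled in 4 libraries of 2 drivers. They had DopEcR at 3755 to 6905 TPM, Dop1R1 at 88.2 to 302, Dop2R at 26.6 to 106 and Dop1R2 at 0.70 to 84.6. Their dominant receptor was thus DopEcR, and the libraries of MBON_g1pedc disagreed on Dop1R2.

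The sixth bridge driver (PB_6) held 523 and 709 TPM of Dop1R1, 3.47 and 6.20 of Dop1R2, 24.8 and 62.9 of Dop2R and 7856 and 8733 of DopEcR. Of the peptide neurons, the insulin-producing cells (Ilp2) held 92.2 and 107 TPM of Dop1R1, 12.2 and 18.7 of Dop1R2, 184 and 299 of Dop2R and 787 and 1037 of DopEcR. The Dsk neurons held 141 and 304 TPM of Dop1R1, 39.6 and 82.6 of Dop1R2, 102 and 113 of Dop2R and 1643 and 2304 of DopEcR. For comparison with the no-driver beads, Dop1R1 in Ilp2 had 1 library below their range and 1 inside it, Dop1R2 and DopEcR in Ilp2 and Dop2R in Dsk lay inside it, and each other gene of these drivers had 1 library inside it and 1 above it.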
